A study of Mus musculus with 4 samples.

Results

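The genes described here are 10 imprinted genes of the mouse that lie outside the Dlk1-Dio3 and distal chromosome 7 imprinted domains: Peg3, Usp29, Zim1, Mest, Snrpn, Ndn, Peg10, Sgce, Plagl1 and Grb10. They were chosen by name, and all 10 were among the 24428 gene symbols of the count tables. The tamoxifen group (n = 2) received 4-hydroxytamoxifen at 0.8 uM over 48 h and the ethanol group (n = 2) received ethanol over the same time, and both were collected 72 h after the treatment began. All 4 libraries were poly(A) RNA-seq libraries from embryonic stem cells of a mouse of 129SvEv background, with both Smarca4 copies flanked by loxP sites (Smarca4flfl) and with CreER, a recombinase that 4-hydroxytamoxifen activates. The genotype label of all 4, ethanol included, reads as an acute deletion of Smarca4, so the titles set the groups. The study asked what changes in expression follow loss of Smarca4, which encodes BRG1, an ATPase of the mSWI/SNF chromatin remodeling complexes. Tamoxifen-treated cells without loxP sites were not analysed here, so deletion, drug and active Cre cannot be told apart, and no label states that the 2 libraries of a group were grown apart. The p-values therefore cover the spread between these 4 libraries, which may be technical.

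Genomic imprinting leaves a gene active only, or mainly, on the copy inherited from the mother or on that inherited from the father. The mark is DNA methylation set in the germ line at imprinting control regions, and after fertilization it is kept there by the zinc finger protein ZFP57 with its partner TRIM28 and by the maintenance methyltransferase DNMT1. Peg3, Usp29, Mest, Snrpn, Ndn, Peg10, Sgce and Plagl1 are known to be expressed from the paternal copy and Zim1 from the maternal copy, while Grb10 is maternal in most tissues and paternal in neurons. Many imprinted genes act on growth and on the placenta. Counts per gene symbol do not separate the parental copies, so every value below is the sum of both.

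Promoter sequences were found in RefSeq (build GRCm38.p6, which differs from the mm9 build of the counts) for 8 of the 10 genes. Those shown belong to a divergent pair of genes with adjacent starts and to genes on which the results below turn. The 163 bases between the starts of Peg3 and Usp29 are written on the Usp29 strand, and the others are the 250 bases before the start of the gene, written 5′ to 3′ on its own strand. Capitals mark TGCCGC, the core of the ZFP57 motif, on either strand.
Peg3-Usp29, between the starts (chr7:6730420-6730582, + strand): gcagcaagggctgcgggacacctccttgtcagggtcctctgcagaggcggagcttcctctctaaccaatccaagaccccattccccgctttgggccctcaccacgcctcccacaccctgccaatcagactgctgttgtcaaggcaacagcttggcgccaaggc
Mest, upstream (chr6:30737800-30738049, + strand): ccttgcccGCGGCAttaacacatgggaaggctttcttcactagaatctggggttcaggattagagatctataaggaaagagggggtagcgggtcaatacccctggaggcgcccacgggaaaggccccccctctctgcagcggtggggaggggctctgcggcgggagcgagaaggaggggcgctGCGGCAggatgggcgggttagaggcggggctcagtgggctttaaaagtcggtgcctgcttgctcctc
Grb10, upstream (chr11:12037421-12037670, - strand): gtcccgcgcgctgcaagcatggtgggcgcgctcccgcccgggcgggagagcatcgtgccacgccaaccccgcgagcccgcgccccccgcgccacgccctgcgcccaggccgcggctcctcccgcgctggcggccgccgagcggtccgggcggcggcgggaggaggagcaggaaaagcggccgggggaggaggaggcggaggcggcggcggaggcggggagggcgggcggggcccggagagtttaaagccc
Ndn, upstream (chr7:62348027-62348276, + strand): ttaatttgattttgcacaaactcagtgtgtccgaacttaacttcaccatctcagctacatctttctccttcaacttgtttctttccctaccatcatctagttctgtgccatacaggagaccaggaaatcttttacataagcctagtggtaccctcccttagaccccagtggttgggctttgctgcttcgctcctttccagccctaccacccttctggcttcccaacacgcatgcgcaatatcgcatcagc
The Mest window, from the second of its 3 listed starts, held 2 matches to TGCCGC, against at least 1 match in 8.7% of 32841 windows of 250 bases in the whole table; the window of the first Mest start held 0, and that of the third nearly coincides with the one printed. Zim1 and Plagl1 had 1 match each, and the windows of Peg3, Usp29, Ndn, Snrpn and Grb10 had 0. None of the windows of the 8 genes held AANATGGC, the core of the motif of YY1, which 3.9% of all windows did. Both motifs were searched on both strands. The printed Grb10 window held 40 CG dinucleotides, the printed Mest window 14 and the Ndn window 5, while the window of the other Grb10 start held 8 and that of the first Mest start 7, where the median of all windows was 6. A match of letters is a description and not a binding site. Bases after the starts were not searched, so a window without a match leaves them undescribed.

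Depth was 13458463 and 17191445 reads in genes with tamoxifen and 16130823 and 27086142 with ethanol. Levels are given as CPM, which are counts divided by the TMM-scaled library size. Smarca4 itself had 68.5 and 68.7 CPM in the tamoxifen libraries, against 328 and 409 CPM in the ethanol libraries, a log2 fold change of -2.43 ± 0.17 (SE). Of the 10 stem cell markers, 2 were called higher, Klf4 (0.62 log2) and Dppa5a (0.53), and 1 lower, Tdgf1 (-0.52). Pou5f1 was not called, with 312 and 371 CPM with tamoxifen and 269 and 336 CPM with ethanol. Fibroblast markers were higher with tamoxifen in 15 of 19 tested cases and lower in 0. Over all genes tested 21.5% were called higher and 22.9% lower. The summed level of the fibroblast markers was 1710 to 1810 CPM in the tamoxifen libraries and 758 to 902 CPM in the ethanol libraries. None of them was at 0 in all libraries. Genes with a low GC content tended to be lower with tamoxifen: the 9 members tested and Snrpn have transcripts of 42.5 to 48.5% GC, and the median log2 fold change of the 3949 tested genes in that range was -0.33, against -0.01 for all 14479 genes tested. Each member is therefore also given with the GC trend of each library removed (GC correction). With the correction, 3 stem cell markers were higher and 2 lower, and 15 fibroblast markers were higher and 0 lower. Dppa5a kept its call (0.62), while those of Klf4 (0.34) and Tdgf1 (-0.18) ended. The other corrected calls fell on stem cell markers that were not called without the correction. Over all genes tested the corrected shares were 10.1% higher and 9.98% lower. The part of fibroblast RNA or of GC content in any result below was not tested beyond these values. In bulk RNA, fewer cells of a type and less RNA per cell cannot be told apart.

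Of the 10 imprinted genes, 9 passed the filter on low counts and Snrpn did not. With tamoxifen, 2 of the 9 were lower than with ethanol, Mest and Grb10, and 0 were higher (edgeR quasi-likelihood test, Benjamini-Hochberg adjusted p under 0.05). Over all genes tested 44.5% were called, 21.5% higher and 22.9% lower, and among genes in the GC range of the members 4.63% were called higher and 36.8% lower, so the share of members called lower was near or under these backgrounds. DESeq2 and limma voom each called 1 member higher, Peg10. At an unadjusted p under 0.05, 2 of the 9 lay higher, Ndn and Peg10, and 4 lower, Mest, Grb10, Peg3 and Usp29. At this threshold 25.8% of all genes lay higher and 26.9% lower. Ndn, Peg10, Peg3 and Usp29 did not pass the adjusted test. With GC correction 3 members were called higher, Ndn, Peg10 and Sgce, and 1 lower, Mest, where 20.1% of all genes were called, 10.1% higher and 9.98% lower. The tamoxifen libraries lay on 1 side of the ethanol libraries for 7 of the 9 genes, 3 above and 4 below, against 74.0% of all genes tested.

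**Figure D1:**
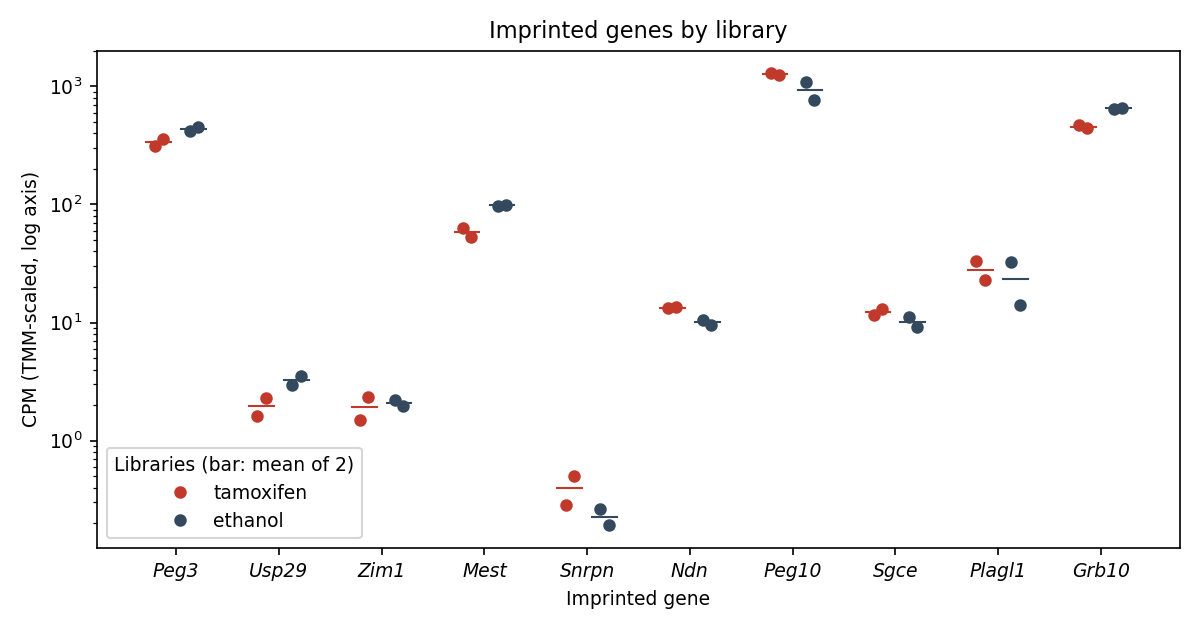
TMM-scaled CPM (log axis) of the 10 imprinted genes in each library, with 2 tamoxifen points left of 2 ethanol points and a bar at their mean. Peg3, Usp29, Mest and Grb10 lie lower in both tamoxifen libraries, Ndn, Peg10 and Sgce lie higher, and the groups of Zim1 and Plagl1 overlap.

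The levels spanned a wide range when set per length, as CPM per kilobase of the longest coding transcript. Peg10 was the highest, at 193 and 187 CPM per kilobase in the tamoxifen libraries and 162 and 116 in the ethanol libraries. Grb10 followed with 92.7 and 87.8 with tamoxifen and 127 and 130 with ethanol, then Peg3 with 36.3 and 41.2 with tamoxifen and 48.3 and 52.2 with ethanol, and Mest with 23.9 and 20.0 with tamoxifen and 36.1 and 37.4 with ethanol. Peg10 and Grb10 overlapped in their ethanol libraries and not with tamoxifen. Sgce, Plagl1 and Ndn had between 2.60 and 7.32 CPM per kilobase in all libraries, and with ethanol Plagl1 overlapped both Sgce and Ndn. Usp29 and Zim1 had 0.469 or less, and with tamoxifen these genes overlapped. Snrpn, with 4 to 9 reads per library, was left out of this order for the reason given below.

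Mest encodes a protein of the alpha/beta hydrolase family named for its transcript in mesoderm. It had 63.6 and 53.3 CPM in the tamoxifen libraries, against 96.3 and 99.8 CPM in the ethanol libraries, so both tamoxifen libraries lay below both ethanol libraries. It fell 1.68-fold, with a log2 fold change of -0.75 ± 0.15 (SE; 95% interval -1.07 to -0.42; edgeR quasi-likelihood test, adjusted p = 0.00201). It was the only member called lower with and without GC correction (-0.53 ± 0.15 with it, edgeR adjusted p = 0.0212), although with the correction the call ended without tamoxifen replicate 1 (-0.68, edgeR adjusted p = 0.0596) or tamoxifen replicate 2 (-0.40, edgeR adjusted p = 0.301).

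Copg2, which encodes a subunit of the COPI vesicle coat, lies next to Mest on the opposite strand, and 23.1% of the annotated exon bases of Mest also belong to Copg2 exons. Copg2 had 43.8 and 48.4 CPM with tamoxifen, against 86.6 and 92.3 CPM with ethanol, and fell 1.94-fold (log2 fold change -0.96 ± 0.15; edgeR adjusted p = 0.000456; -0.54 with GC correction, a call that ended without tamoxifen replicate 1, at -0.49, or tamoxifen replicate 2, at -0.60). The strand setting was not stated, and whether reads from the shared bases were counted for either gene or set aside was not tested. Cep41, a centrosomal protein gene on the other side of Mest, had -0.37 ± 0.18 log2 by comparison and did not pass the test (edgeR adjusted p = 0.116), and Klf14, a Krüppel-like factor gene with under 1 CPM in every library, had -0.02 and did not pass either.

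Grb10 encodes an adaptor protein that binds the insulin and IGF1 receptors and dampens their signal, and in mice its loss gives larger pups. It had 469 and 444 CPM with tamoxifen, against 644 and 659 CPM with ethanol. The groups did not overlap, and the libraries of a group lay close together. Grb10 fell 1.43-fold (log2 fold change -0.51 ± 0.15, SE; 95% interval -0.84 to -0.19; edgeR quasi-likelihood test, adjusted p = 0.0159). The call ended with GC correction (-0.37, edgeR adjusted p = 0.0867), with total counts (-0.38, edgeR adjusted p = 0.0536), and without tamoxifen replicate 1 (-0.55, edgeR adjusted p = 0.103) or tamoxifen replicate 2 (-0.47, edgeR adjusted p = 0.173).

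Both coding neighbours of Grb10 also fell, with larger values than Grb10. Cobl, which encodes the actin nucleator Cordon-bleu, had 80.7 and 77.9 CPM with tamoxifen, against 254 and 262 CPM with ethanol, a 3.26-fold decrease (log2 fold change -1.70 ± 0.15; edgeR adjusted p = 4.55e-05). Ddc, the aromatic amino acid decarboxylase gene, had 3.11 and 3.14 CPM with tamoxifen, against 7.75 and 9.29 CPM with ethanol, a 2.74-fold decrease (-1.45 ± 0.21; edgeR adjusted p = 0.000391). Their 95% intervals, -2.02 to -1.38 for Cobl and -1.92 to -0.99 for Ddc, lay below that of Grb10, while the differences between the genes were not tested. Both kept the call in every alternative run, with -1.72 for Cobl and -1.33 for Ddc after GC correction.

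**Figure D2:**
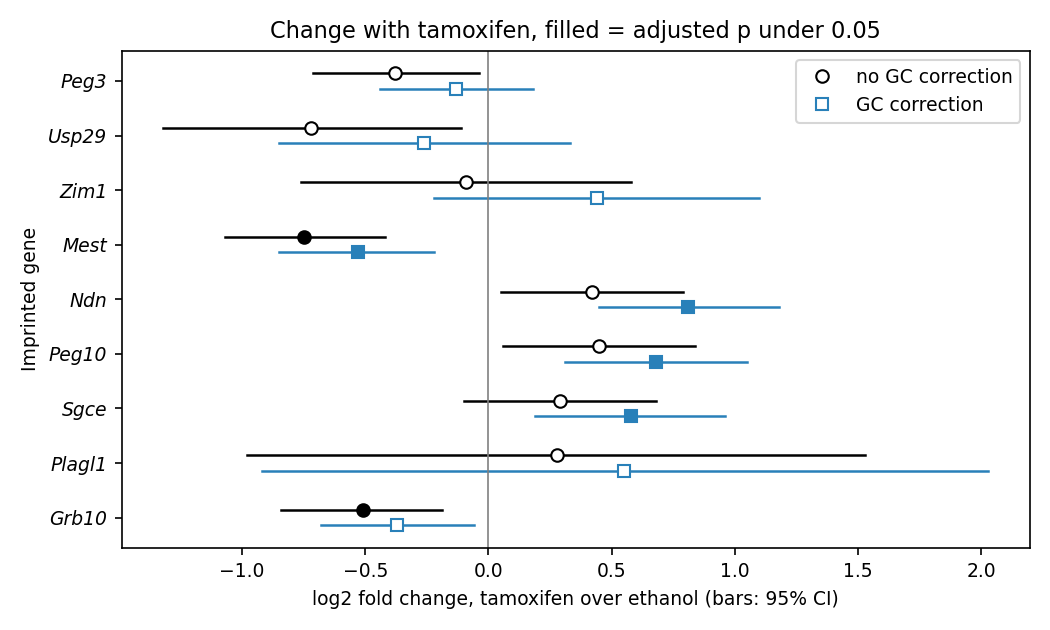
Log2 fold change (tamoxifen over ethanol) of the 9 imprinted genes tested, without (circles) and with (squares) GC correction, with 95% intervals as bars and filled symbols for an adjusted p under 0.05. Mest is filled in both, Grb10 only without the correction, and Ndn, Peg10 and Sgce only with it.

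Peg3 encodes a large zinc finger protein, which in mice acts on growth and maternal behaviour. It had 315 and 358 CPM with tamoxifen, against 420 and 454 CPM with ethanol, so the tamoxifen libraries lay below. Its log2 fold change of -0.38 ± 0.15 (SE; 95% interval -0.71 to -0.04) did not pass the test (edgeR quasi-likelihood test, adjusted p = 0.0632) and was -0.13 with GC correction. It passed without ethanol replicate 1 (-0.43, edgeR adjusted p = 0.0217).

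Usp29, a gene of the ubiquitin-specific protease family, starts back to back with Peg3 across the bases printed above. It was far lower, with 23 and 41 reads (1.63 and 2.30 CPM) in the tamoxifen libraries and 45 and 92 reads (2.93 and 3.53 CPM) in the ethanol libraries. Its log2 fold change of -0.72 ± 0.28 (95% interval -1.32 to -0.11) lay on the same side as that of Peg3 and did not pass (edgeR adjusted p = 0.0537; -0.26 with GC correction). It was called lower with no filter on low counts (-0.73, edgeR adjusted p = 0.0365) and without ethanol replicate 1 (-0.82, edgeR adjusted p = 0.0186). Per 100 reads of Peg3 there were 0.516 and 0.642 reads of Usp29 with tamoxifen and 0.699 and 0.778 with ethanol, so the ratio was lower in both tamoxifen libraries. This difference was not tested, rests on few Usp29 reads and carries no GC correction. Genes within 1 point of GC content had a median log2 fold change of -0.47 near Usp29 and -0.23 near Peg3. In an annotation that is not the one behind the counts, 14.3% of Usp29 exon bases also belong to Zim3, on the opposite strand. The part of this overlap in the Usp29 count was not tested.

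Zim1, the maternally expressed zinc finger gene on the other side of Peg3, had 21 and 42 reads with tamoxifen and 34 and 51 with ethanol. At 1.49 and 2.35 CPM with tamoxifen and 2.22 and 1.96 CPM with ethanol the groups overlapped. Its log2 fold change was -0.09 ± 0.31 (95% interval -0.76 to 0.58) and turned to 0.44 with GC correction and 0.04 with total counts, none of them called. Values within the 95% interval are not excluded by this fit, and the smallest change detectable at this depth was not estimated. Of the other listed genes of the domain found in the count tables, Zim2 had no read and Zim3 had reads in 1 ethanol library only.

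Ndn encodes necdin, a protein of the MAGE family that restrains cell growth in neurons. It had 13.2 and 13.5 CPM with tamoxifen, against 10.5 and 9.60 CPM with ethanol. The tamoxifen libraries lay above, with a log2 fold change of 0.42 ± 0.17 (SE; 95% interval 0.05 to 0.79) that did not pass the test (edgeR quasi-likelihood test, adjusted p = 0.0629). With GC correction Ndn was called higher (0.81 ± 0.17, edgeR adjusted p = 0.00505), as it was with upper-quartile factors (0.48), with total counts (0.54) and without ethanol replicate 1 (0.48). The corrected call ended without tamoxifen replicate 2 (0.82, edgeR adjusted p = 0.0575).

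Magel2, the gene next to Ndn and of the same protein family, changed the most among the neighbouring genes called higher. It had 41 and 37 reads (2.90 and 2.07 CPM) with tamoxifen, against 8 and 12 reads (0.521 and 0.461 CPM) with ethanol, and rose 5.02-fold (log2 fold change 2.33 ± 0.37; edgeR adjusted p = 0.00061; 1.85 with GC correction, a call that ended without tamoxifen replicate 1, at 1.59). Peg12, a relative of the GSK3-binding FRAT proteins, had 3.25 and 2.86 CPM with tamoxifen and 1.56 and 1.65 CPM with ethanol and rose 1.88-fold (edgeR adjusted p = 0.0173). That call ended with GC correction (0.46, against 0.91 log2), with DESeq2 (0.92) and without tamoxifen replicate 1 (0.82) or tamoxifen replicate 2 (1.01).

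Mkrn3, a makorin ubiquitin ligase gene between them, had 3.11 and 2.41 CPM with tamoxifen and 2.61 and 2.77 CPM with ethanol and did not pass the test, so the genes of this stretch did not all pass in 1 direction. Ube3a, the ubiquitin ligase gene that is maternally expressed in neurons, had 101 and 119 CPM with tamoxifen, against 167 and 230 CPM with ethanol, and fell 1.81-fold (-0.86 ± 0.18 log2; edgeR adjusted p = 0.00245). Its transcript is poor in G and C, at 36.9%, and the value was 0.06 and not called with GC correction. Atp10a, a phospholipid flippase gene, did not pass (0.22 ± 0.16 log2).

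Snrpn encodes SmN, a core protein of the spliceosome, and its transcript also carries the frame of Snurf. It had 4 and 9 reads with tamoxifen and 4 and 5 reads with ethanol, too few for the test, and Snurf had no read in any library. In an annotation that is not the one behind the counts, 10% of the annotated Snrpn exon bases also belong to Snurf. Another gene model on the same strand shares 27.3%, but it is not among the symbols of the count tables. Reads that could not be assigned to a single gene made up 1.05 and 1.05% of all reads with tamoxifen and 0.889 and 0.966% with ethanol. Whether reads of Snrpn were set aside in this way was not tested, so no level is read from its count.

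Peg10 derives from a retrotransposon and is needed in mice for the placenta to form. It had 1290 and 1250 CPM with tamoxifen, against 1080 and 770 CPM with ethanol. Both tamoxifen libraries lay above, and the ethanol libraries differed more from each other than the tamoxifen libraries did. Its log2 fold change of 0.45 ± 0.18 (SE; 95% interval 0.06 to 0.84) did not pass the test (edgeR quasi-likelihood test, adjusted p = 0.0568), a value near the threshold. It passed with DESeq2 (0.45, adjusted p = 0.0429), limma voom (0.47, adjusted p = 0.0492), no filter on low counts (0.45), upper-quartile factors (0.51) and total counts (0.58). With GC correction it was called higher (0.68 ± 0.17, edgeR adjusted p = 0.014), a call lost without tamoxifen replicate 1 (0.64) or tamoxifen replicate 2 (0.71). Without ethanol replicate 1 the uncorrected value was 0.72 and called higher, and without ethanol replicate 2 it was 0.23.

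Peg10 is high in trophoblast, so the markers of that lineage are set beside it. Of the trophectoderm markers 4 of 8 tested were higher and 2 lower, beside 21.5% higher and 22.9% lower over all genes tested. With GC correction 2 were higher and 2 lower, beside 10.1% and 9.98% of all genes. Their summed level was 411 to 423 CPM in the tamoxifen libraries and 284 CPM in both ethanol libraries. The transcription factor genes Eomes (0.74 log2) and Hand1 (1.25) were called higher and Ascl2 (-2.10) lower, each with and without GC correction. Krt8 (0.80) was also called higher, a call that ended with GC correction (0.36). The defining factors Cdx2 and Elf5 were under the filter, with 0.566 and 0.785 CPM for Cdx2 and 0.283 and 0.0560 CPM for Elf5 with tamoxifen, and 0.586 and 0.384 CPM for Cdx2 and 0.261 and 0.461 CPM for Elf5 with ethanol. Their part in the level of Peg10 was not tested.

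Sgce encodes epsilon-sarcoglycan, a membrane protein of the dystrophin-associated complex, and lies head to head with Peg10. It had 11.5 and 13 CPM with tamoxifen, against 11.1 and 9.14 CPM with ethanol. The tamoxifen libraries lay above by a small margin, with a log2 fold change of 0.29 ± 0.18 (95% interval -0.10 to 0.68; edgeR adjusted p = 0.209). With GC correction it was 0.58 ± 0.18 and called (edgeR adjusted p = 0.0372), a call that ended without tamoxifen replicate 1 (0.64), tamoxifen replicate 2 (0.50) or ethanol replicate 2 (0.42). For every 100 reads of Peg10 there were 0.895 and 1.04 reads of Sgce with tamoxifen and 1.02 and 1.19 with ethanol, so the ratio overlapped between the groups.

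Among the other listed genes around Peg10, 1 of 7 was called higher and 1 lower, beside 21.5% and 22.9% of all genes tested. Asb4, which encodes a SOCS-box protein, had 2.55 and 2.75 CPM with tamoxifen, against 1.24 and 1.46 CPM with ethanol, and rose 1.94-fold (0.95 ± 0.29 log2; edgeR adjusted p = 0.0182; 1.37 with GC correction, a call that ended without tamoxifen replicate 2, at 1.34). The uncorrected call ended with DESeq2 (0.96) and without tamoxifen replicate 1 (1.0) or tamoxifen replicate 2 (0.90). Calcr, the calcitonin receptor gene, had 1 and 6 reads with tamoxifen and 11 and 23 with ethanol; its call (-1.87 ± 0.60 log2, edgeR adjusted p = 0.0233) ended with GC correction (-1.59), with DESeq2 (-1.93), without tamoxifen replicate 1 (-1.26) and without ethanol replicate 2 (-1.68). Casd1 (-0.15), Ppp1r9a (0.00), Pon3 (-0.64), Pon2 (0.31) and Tfpi2 (0.31) did not pass the test, and with GC correction Pon2 (0.56) and Tfpi2 (1.05) were called higher, calls that ended without tamoxifen replicate 1 (0.50 and 1.02) or tamoxifen replicate 2 (0.61 and 1.07).

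**Figure D3:**
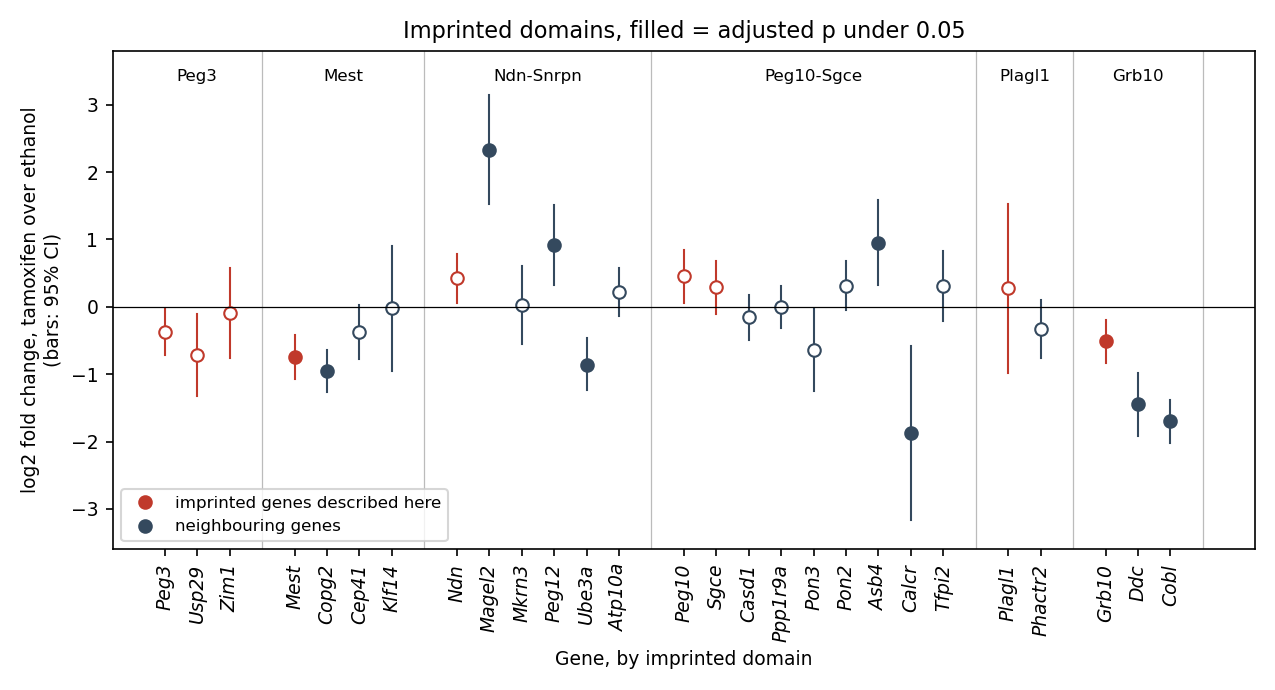
Log2 fold change (tamoxifen over ethanol) with 95% intervals of the imprinted genes described here and of their listed neighbours, grouped by domain, with filled symbols for an adjusted p under 0.05. Ddc and Cobl lie below Grb10, Copg2 lies beside Mest, and Magel2 lies above Ndn.

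Plagl1 encodes a zinc finger transcription factor that slows the cell cycle and regulates other imprinted genes in mice. It had 33.1 and 22.9 CPM with tamoxifen and 32.6 and 14.1 CPM with ethanol, so the groups overlapped, and the libraries of a group differed by more than the group means. Replicate 1 was the higher library in both groups. The log2 fold change of 0.28 ± 0.46 (SE; 95% interval -0.98 to 1.53; edgeR quasi-likelihood test, adjusted p = 0.670) had the widest interval of the 9 genes. It rested on single libraries: without ethanol replicate 1 it was 0.98 and called higher (edgeR adjusted p = 1.97e-06), without ethanol replicate 2 it was -0.22 and without tamoxifen replicate 1 it was -0.02. Phactr2, the listed gene nearest to it, did not pass the test (-0.33 ± 0.20 log2).

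**Figure D4:**
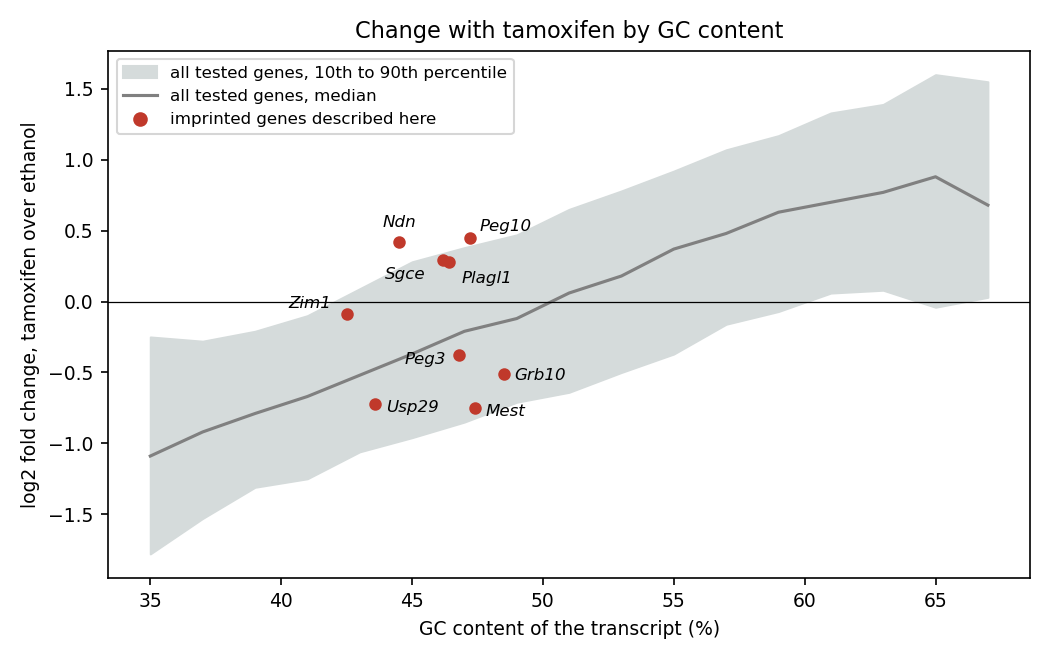
Log2 fold change (tamoxifen over ethanol) against the GC content of the transcript for the 9 imprinted genes tested (points), over the median and the 10th to 90th percentile of all tested genes in 2-point bins. Ndn and Peg10 lie above the median of genes of like GC content, -0.40 and -0.21, and Mest lies below it, -0.20.

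Set against genes of like GC content, the members fell on both sides. Within 1 point of GC content, the median log2 fold change of other genes was -0.40 near Ndn, -0.21 near Peg10, -0.27 near Sgce and -0.26 near Plagl1, and these 4 members had positive values. The median was -0.20 near Mest, -0.14 near Grb10, -0.23 near Peg3 and -0.47 near Usp29, and these 4 lay further below it. Zim1, at -0.09, lay above the median of -0.55. The whole set of 9 had a median log2 fold change of -0.09, and 0.44 with GC correction, beside -0.01 and 0.01 over all genes tested.

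Of 23 imprinted genes listed in other domains, 19 were tested, and 4 were higher and 7 lower with tamoxifen, a share called of 11 of 19 beside 44.5% of all genes. Their median log2 fold change was -0.22. Slc38a4, an amino acid transporter gene, had 183 and 201 CPM with tamoxifen, against 352 and 427 CPM with ethanol, and fell 2.02-fold (-1.02 ± 0.16 log2, edgeR adjusted p = 0.000559; -0.54 with GC correction, a call that ended without tamoxifen replicate 1, at -0.50, or tamoxifen replicate 2, at -0.59). Nnat, which encodes the membrane proteolipid neuronatin, fell 1.83-fold (-0.87 ± 0.17 log2, edgeR adjusted p = 0.00166), and further with GC correction (-1.31). Commd1 fell by 0.64 on the log2 scale and Zdbf2 by 0.54, and both calls ended with GC correction (-0.29 and 0.00). With the correction 2 genes of the list were higher and 3 lower.

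Among 16 factors that set, keep or remove methylation or act at imprinted regions, 1 was higher and 5 were lower, 6 called of 16 beside 44.5% of all genes. Tet1, which oxidizes methylated cytosine, had 1180 and 967 CPM with tamoxifen, against 2640 and 2240 CPM with ethanol, a 2.28-fold decrease (-1.19 ± 0.17 log2; edgeR adjusted p = 0.000326; -0.74 with GC correction, a call that ended without tamoxifen replicate 2, at -0.58). Dnmt3a, a methyltransferase that sets new marks, had 168 and 162 CPM with tamoxifen, against 256 and 323 CPM with ethanol, a 1.75-fold decrease (edgeR adjusted p = 0.00200; -0.90 log2 with GC correction, against -0.81). The calls of the chromatin genes Atrx (-0.98) and Smchd1 (-0.78) ended with GC correction (-0.25 and -0.23), where 2 of the list were lower and 0 higher, beside 20.1% of all genes called. Zfp57 and Trim28, named after their values were seen, had -0.11 ± 0.15 (95% interval -0.43 to 0.22) and 0.66 ± 0.18, and the higher call of Trim28 was lost with GC correction (0.08).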

How the data were processed

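The authors deposited raw counts of reads per gene symbol for each library, and the HTSeq-style summary lines were left out (reads in no gene: 37.6 and 35.0% with tamoxifen, 51.7 and 40.8% with ethanol). The submitters' processing notes name CASAVA 1.8.2, Bowtie 1.1.1, HTSeq, DESeq2 and mm9; annotation and strand setting were not given. Tamoxifen was compared with ethanol with edgeR 4.0.16 in R 4.3.3 (robust quasi-likelihood test, TMM, filterByExpr, group only). P-values were adjusted by Benjamini-Hochberg over 14479 genes, with a threshold of 0.05. SE is |log2 fold change| divided by the root of F. GC correction used an offset from a loess fit (span 0.5) of each library against GC content of GENCODE M21 transcripts (GRCm38), with 23535 of 24428 symbols matched directly and 524 by synonym. Alternatives were DESeq2 1.42.0, limma 3.58.1 voom, other scalings and filters, a replicate block and each library left out. Chi-square per degree of freedom between replicates was 11.1 for tamoxifen and 39.6 for ethanol, so none was a duplicate. On simulated data for this comparison (200 of 14291 genes changed) the test found 31.3% of changes of 1.5-fold, 95.5% of 2-fold and 100% of 4-fold. The changed genes were drawn from those above 4 CPM, with 1 common spread for all genes and no GC trend. These shares therefore do not cover genes of lower level, such as Usp29 and Zim1, or of wider spread, such as Plagl1. Members and lists were chosen with earlier results of these data known. All members and all listed neighbours found in the count tables were named. Up to 4 called genes (smallest adjusted p) were named of the other imprinted genes, the factors, and the trophectoderm and stem cell markers. Pou5f1, Cdx2, Elf5, Zfp57 and Trim28 were named outside this rule, and no fibroblast, primitive endoderm or neural marker was named. Of the marker lists, 5 higher and 0 lower of 12 primitive endoderm, 3 and 2 of 7 neural and 2 and 1 of 10 stem cell markers were called. Over all genes tested the shares were 21.5% higher and 22.9% lower.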

Additional observations from a re-analysis of the deposited data

How the results depend on the processing

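Smarca4 was called lower in every alternative run, between -3.01 and -2.25 log2. Members called higher numbered 0 with TMM, RLE or a mean of at least 10 reads, 1 with no filter on low counts, DESeq2 or limma voom, 2 with upper-quartile factors or total counts, 3 with GC correction, and between 0 and 3 when 1 library was left out (0 to 4 with GC correction). Members called lower numbered 2 with TMM, 1 with total counts, 1 with GC correction, and between 1 and 4 when 1 library was left out (0 to 1 with GC correction). Over all genes, GC correction left 1463 higher and 1445 lower in place of 3119 and 3322, and leaving out 1 library gave 1800 to 3598 higher and 2055 to 3728 lower (with GC correction 567 and 388 higher and 660 and 433 lower without a tamoxifen library, and 1722 and 1747 higher and 1816 and 1833 lower without an ethanol library). Upper-quartile factors and total counts moved the median of all genes to 0.06 and 0.12 log2, and with total counts 4082 genes were higher and 2520 lower. Same-numbered libraries deviated together (correlation 0.234 across genes), but with 2 pairs and no shared source named in the labels they share only a number. With the replicate block 2 members were higher, Ndn and Peg10, and 4 lower, Peg3, Usp29, Mest and Grb10. The same run called 3919 genes higher and 4168 lower. With GC correction and the replicate block 4 members were higher, Ndn, Peg10, Sgce and Plagl1, and 2 lower, Mest and Grb10, beside 2573 genes higher and 2460 lower. Plagl1 had 0.63 there (edgeR adjusted p = 0.00013), and 0.35 (edgeR adjusted p = 0.0533) with the replicate block alone. Zim1 changed sign with total counts (0.04), GC correction (0.44; 0.45 with the replicate block) and lay between -0.48 and 0.18 with 1 library left out (0.68, 0.08, 0.55 and 0.30 with GC correction). Plagl1 changed sign without tamoxifen replicate 1 (-0.02) and without ethanol replicate 2 (-0.22), in a range of -0.22 to 0.98 with 1 library left out. The cause was not tested. Low counts limit Snrpn, Usp29 and Zim1. With 3 libraries, the single one of its group is taken to vary like the other pair.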
